A study of Mus musculus with 52 samples.

Results

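The first transcriptional response of the mouse suprachiasmatic nucleus (SCN) to light is described here from 8 bulk RNA-seq libraries, of the 52 samples of the series. The 4 libraries of the light group came from mice given 0.5 h of light from circadian time (CT) 17, in the subjective night. The 4 libraries of the dark group came from mice left in darkness until CT17, the hour at which the pulse began, so the groups also differ by the length of the pulse in circadian time. All 8 are labelled WT males of 11 to 12 weeks, and no transgene or other allele is named for them. Each library pooled 6 pairs of SCN, so a value is a mean over animals.

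Both groups hold replicates named 1, 1s, 2 and 2s, and all values per library are given in that order. In these 8 libraries the suffix s goes with label batch 2 and its absence with label batch 1. The meaning of the suffix is not given in the sources used here, nor whether 1 and 1s share a pool of tissue. Over the 14478 genes tested, which are not independent, the difference between replicates 1 and 2 correlated with that between 1s and 2s at r = 0.55 in light and 0.03 in dark libraries. The 4 libraries of a group may thus be fewer than 4 separate pools, and the spread that the SDs and p-values rest on may be technical. With the libraries of a number summed, 2 against 2, 54 genes were called, 52 of them among the 60 described here. The libraries without the suffix held 13223597 to 14214901 counted reads and those with it 27413860 to 30149286.

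The SCN is the circadian pacemaker of the hypothalamus. Light reaches it through retinal axons that release glutamate and PACAP, and the calcium and MAP kinase signals that follow lead to phosphorylation of the transcription factor CREB, which binds the cAMP response element (CRE). Genes induced this way without new protein synthesis are known as immediate early genes. Many encode transcription factors or inhibitors of the signal that induced them, and Per1, a clock repressor, is among them in this tissue.

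After 0.5 h of light 58 genes were higher and 2 were lower than in dark at CT17, of 14478 genes tested by edgeR's quasi-likelihood test with a term for the suffix (Benjamini-Hochberg adjusted p under 0.05). These 60 genes are 0.414% of those tested, the 58 higher genes 0.401% and the 2 lower genes 0.0138%. The response was nearly all gains, in a small number of genes and of widely differing size. Of the 58 genes, 16 were higher by over 4-fold, 15 by 2- to 4-fold and 27 by less than 2-fold. The median log2 change of all genes tested was -0.01. At an unadjusted p under 0.05 there were 642 genes, 379 of them higher and 263 lower.

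Together the 58 genes took 0.417, 0.437, 0.384 and 0.413% of all counted reads in the light libraries, against 0.168, 0.176, 0.168 and 0.178% in the dark libraries. The 4 light libraries lay above all dark libraries in this share, which is a description, since the same libraries chose the genes. All but Ppp1r3c among the 60 called genes had light and dark libraries that did not overlap, that is 59 genes. Over all genes tested, 320 (2.21%) had such separate groups, with light above dark in 191 of them (1.32%).

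**Figure D1:**
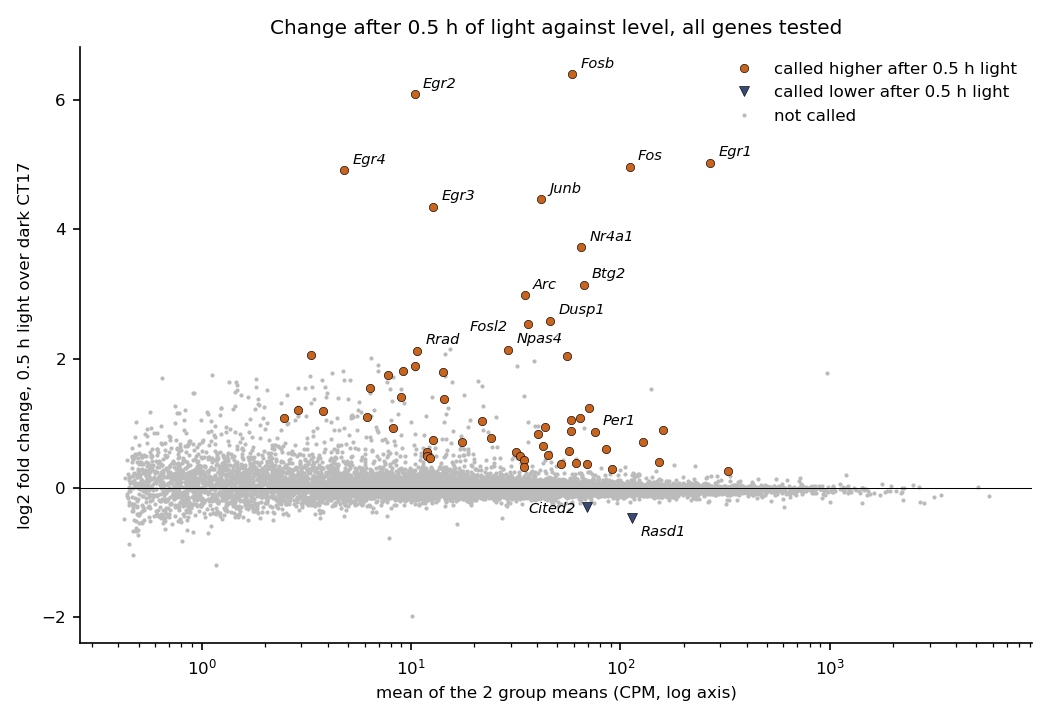
Log2 fold change of 0.5 h light over dark CT17 against the mean of both group means in CPM (log axis) for the 14478 genes tested, with the 58 genes called higher as circles, the 2 called lower as triangles and the others in grey. The called genes lie almost all on the upper side, and those of largest change, such as Fosb and Egr2, span low and high expression.

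Promoter windows of RefSeq on GRCm38.p6 (mm10), from 250 bases before to 50 bases after a gene's start, were found for 43 of the 58 higher genes, in 55 windows. That is 74.1% of them, under the minimum of 80% for a check over the whole set, which is therefore void, and the shares that follow describe those 55 windows only. The short CRE core TGACG, read on both strands, was present in 40 of the 55 windows (72.7%), belonging to 33 of the 43 genes. It was present in 20.8% of all 32851 windows of the table and in 28.9% of the windows of the genes tested. The complete palindrome TGACGTCA, which contains the core, was present in 14.5% of the 55 windows, against 1.79% of all windows and 2.86% of those of the genes tested, in Btg2, Dusp1, Maff, Ppp1r15a, Plk2, Arl5b, Ccnl1 and Tinf2. Bases before the start are shown for 6 genes of different roles, because their windows carry the core, printed in capitals as TGACG or its reverse complement CGTCA. Each line gives the 150 bases before a start, read 5′ to 3′ on the gene's strand. The windows are chr7:19310046-19310195 (minus strand) for Fosb, chr12:85473740-85473889 (plus) for Fos, chr15:101266696-101266845 (plus) for Nr4a1, chr17:26508473-26508622 (minus) for Dusp1, chr13:110394894-110395043 (plus) for Plk2 and, for the downstream start of Per1, chr11:69100002-69100151 (plus).
Fosb: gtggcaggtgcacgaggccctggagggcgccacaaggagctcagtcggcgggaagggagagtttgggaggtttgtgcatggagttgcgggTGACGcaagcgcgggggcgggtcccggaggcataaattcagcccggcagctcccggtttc
Fos: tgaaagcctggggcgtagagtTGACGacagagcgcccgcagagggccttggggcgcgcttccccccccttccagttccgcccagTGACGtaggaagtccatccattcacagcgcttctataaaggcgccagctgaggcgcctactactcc
Nr4a1: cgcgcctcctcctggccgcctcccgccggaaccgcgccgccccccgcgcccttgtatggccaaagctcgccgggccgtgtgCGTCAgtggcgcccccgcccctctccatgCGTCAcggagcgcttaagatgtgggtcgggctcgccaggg
Dusp1: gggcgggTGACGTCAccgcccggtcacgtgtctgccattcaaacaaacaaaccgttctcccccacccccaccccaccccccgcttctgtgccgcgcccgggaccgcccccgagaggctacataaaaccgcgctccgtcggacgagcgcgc
Plk2: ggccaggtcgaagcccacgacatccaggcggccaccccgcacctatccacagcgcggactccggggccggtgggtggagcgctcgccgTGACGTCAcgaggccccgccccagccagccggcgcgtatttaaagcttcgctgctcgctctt
Per1: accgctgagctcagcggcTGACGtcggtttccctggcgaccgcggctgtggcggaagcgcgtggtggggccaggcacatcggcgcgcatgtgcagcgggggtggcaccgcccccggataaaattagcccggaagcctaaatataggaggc

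In these stretches the core starts 60 bases before the start in Fosb, 129 and 66 bases before it in Fos, and 69 and 40 bases before it in Nr4a1. The palindrome of Dusp1 begins 143 bases before the start and that of Plk2 62 bases before it, and the core of Per1 begins 132 bases before its downstream start. Of the other motifs searched on both strands, the CArG box bound by serum response factor was in 10.9% of the 55 windows. It was in 1.63% of all windows and in 1.26% of those of the genes tested. Its 6 matching windows belonged to only 3 of the 43 genes, Egr2, Dusp5 and Srf. Most were windows of Egr2 that partly overlap, so the share over windows counts the same bases more than once. The EGR site GCGNGGGCG was in 20% of the 55 windows, 5.55% of all windows and 10.3% of those of the genes tested. The canonical E-box CACGTG was in 16.4%, 7.15% and 9.41% of the same windows, and the AP-1 site TGANTCA in 3.64%, 7.81% and 5.22%. A match is a description of letters and not a site shown to be bound. The genes with no window in the table are Egr1, Egr3, Arc, Rrad, Ier2, Dusp4, Gem, Sik1, Nfkbiz, Hes1, Zfp36l2, Siah2, Bhlhe40, Gltscr2 and Skil.

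The AP-1 subunits, basic leucine zipper proteins that act as Fos and Jun dimers, held the largest change. Of 11 tested members of the list of AP-1 subunits and small Maf factors, 6 rose and none fell, with a median log2 change of 1.23. Fosb, a Fos-family subunit, had 111, 143, 84.2 and 126 CPM (the read count scaled by TMM to a common library size) in light libraries, against 0.67, 1.72, 0.961 and 1.82 CPM in dark libraries. The groups lay far apart, in 4 of 4 libraries, and the log2 change was 6.41 ± 0.14 (SE, adjusted p = 2.19e-09). The dark values rest on 9 to 56 reads per library.

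Fos, the founding member of the family, had 224, 224, 210 and 201 CPM in light libraries, against 5.95, 6.28, 7.76 and 7.32 CPM in dark libraries. All 4 light libraries were above all dark ones, with a log2 change of 4.97 ± 0.08 (adjusted p = 4.53e-10), the smallest adjusted p of any gene. Junb, a Jun-family partner, had 75.6, 82.4, 92 and 68.7 CPM in light libraries, against 3.65, 3.3, 3.84 and 3.58 CPM in dark libraries. Its groups did not overlap and its log2 change was 4.47 ± 0.10 (adjusted p = 2.14e-09).

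Fosl2, the Fra-2 subunit, had 69.2, 62.6, 51.6 and 61.7 CPM in light libraries, against 11.7, 9.59, 11.5 and 10.2 CPM in dark libraries, a log2 change of 2.53 ± 0.10 (adjusted p = 2.92e-07). Jun itself was present in the dark and changed less, with 99.1 ± 7.58 CPM in light and 42.3 ± 5.44 CPM in dark libraries (SD, n = 4 each) and a log2 change of 1.23 ± 0.07 (adjusted p = 5.77e-06). Maff, a small Maf factor without a transactivation domain, rose by 2.05 ± 0.17 on the log2 scale (adjusted p = 0.000133) at a low level of 5.35 ± 0.504 CPM in light and 1.28 ± 0.288 CPM in dark libraries (SD, n = 4 each). The members tested without passing were Atf3 (log2 change 1.11, adjusted p = 0.186), Mafk, Jund, Mafg and Jdp2.

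The Egr factors, zinc finger proteins that bind GC-rich promoter sites, all 4 rose, whereas neither of their corepressors Nab1 and Nab2 passed the test. Egr1 had 566, 584, 423 and 508 CPM in light libraries, against 10.1, 19.6, 14.6 and 18.9 CPM in dark libraries. The groups were wide apart, with a log2 change of 5.03 ± 0.15 (adjusted p = 1.72e-08). Per length, on the authors' RPKM scale, Egr1 had the highest mean level among the 60 called genes after light, at 118 RPKM in light and 3.57 RPKM in dark libraries, followed by Fos at 93.1 RPKM in light and 2.94 RPKM in dark libraries.

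Egr2 had 25.2, 18.4, 20.9 and 17.6 CPM in light libraries, against 0.223, 0.291, 0.37 and 0.26 CPM in dark libraries. The dark values rest on 3, 9, 5 and 8 reads, so the fold is loosely fixed. The fitted log2 change was 6.10 ± 0.14 (adjusted p = 2.67e-09). This SE is derived from the F statistic and is too small to describe a fold that rests on so few dark reads. Egr4 had 9.43, 9.75, 9.94 and 7.92 CPM in light libraries, against 0.372, 0.291, 0.296 and 0.26 CPM in dark libraries. It too was near its floor in the dark, with 4 to 9 reads per library. Its log2 change was 4.92 ± 0.16 (adjusted p = 3.88e-08), with the same limit on the SE. Egr3 had 24.5, 31.5, 16.2 and 24.8 CPM in light libraries, against 1.19, 1.52, 0.517 and 1.43 CPM in dark libraries, a log2 change of 4.35 ± 0.20 (adjusted p = 9.88e-07). Replicate 2 had the lowest Egr3 value of both groups, and the groups did not overlap. Nab2, induced by Egr factors in other systems, changed by 0.40 (adjusted p = 0.208) and Nab1 by 0.04 on the log2 scale.

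All 3 Nr4a receptors, orphan nuclear receptors whose activity is set mainly by their abundance, rose. Nr4a1 had 129, 133, 110 and 112 CPM in light libraries, against 8.63, 9.62, 8.43 and 9.57 CPM in dark libraries. Every light library was above every dark library, with a log2 change of 3.73 ± 0.08 (adjusted p = 2.14e-09). Nr4a3 had 109, 92.7, 71.7 and 85.8 CPM in light libraries, against 21.1, 21.7, 20.3 and 23.3 CPM in dark libraries, a log2 change of 2.05 ± 0.11 (adjusted p = 5.77e-06). Nr4a2 rose by 1.79 ± 0.12 on the log2 scale (adjusted p = 1.7e-05). The Nr4a3 gene spans 41.4 kb and is the longest of the 58.

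**Figure D2:**
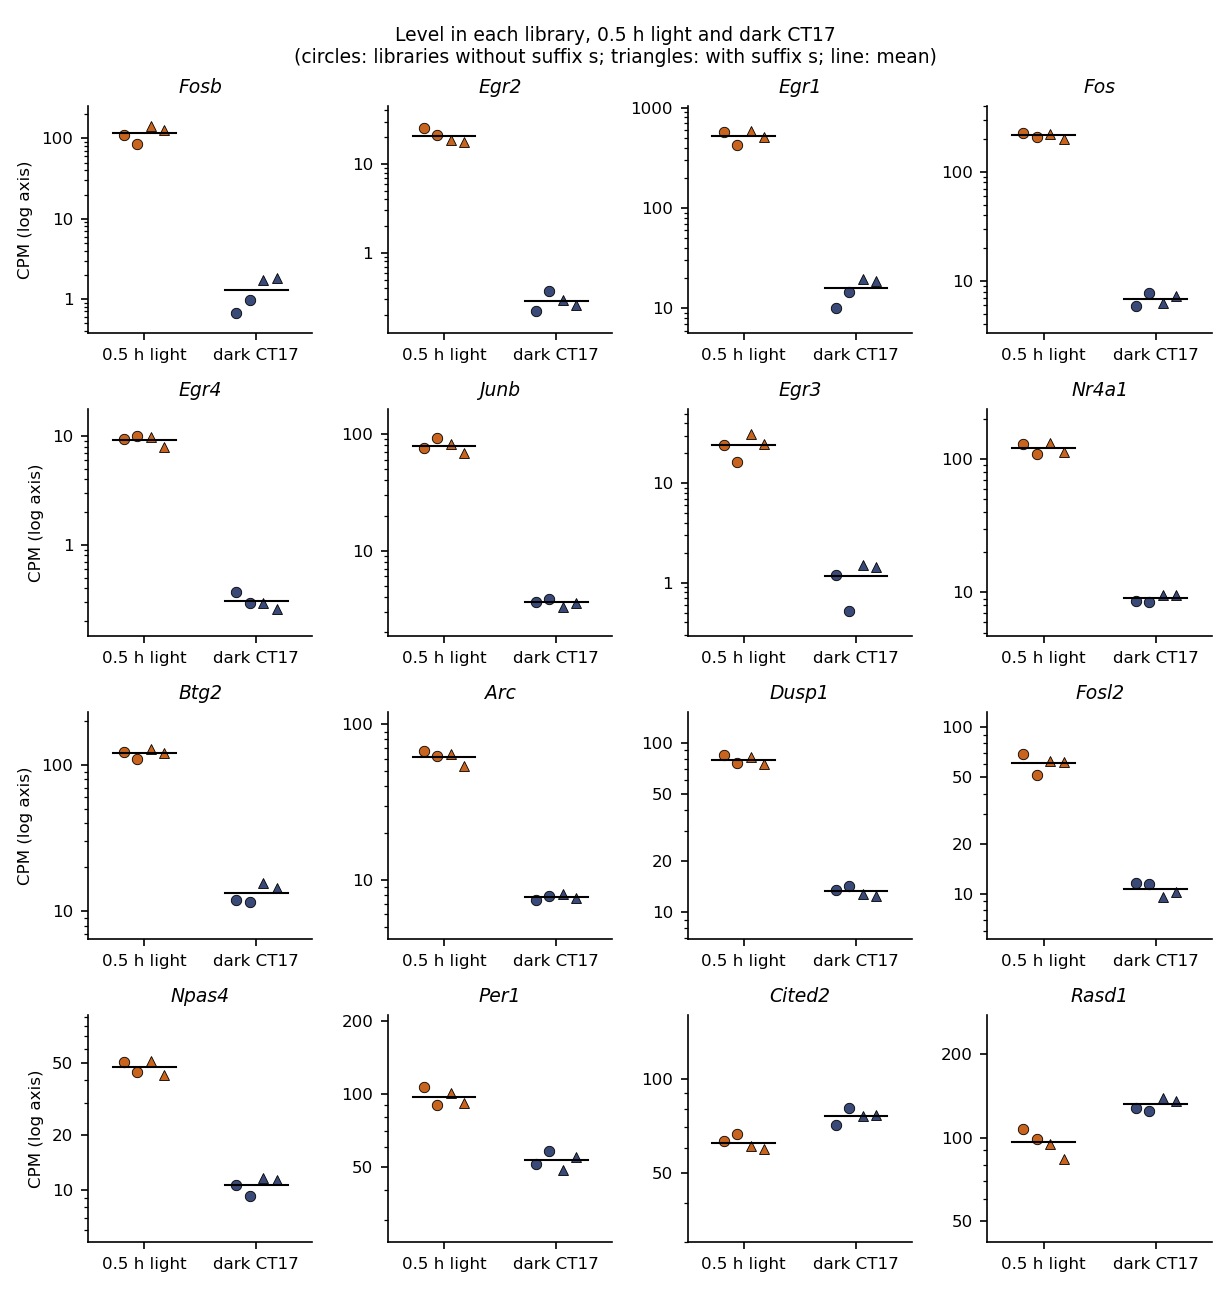
CPM in each library (log axis, a scale of its own per gene) for the 12 genes of largest change, Npas4, Per1 and the 2 genes called lower, with 0.5 h light left and dark CT17 right, circles for libraries without and triangles for libraries with the suffix s, and a line at the group mean. In every panel the light and dark libraries do not overlap, and Cited2 and Rasd1 are those in which light lies below.

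Of 29 other early transcription factors tested, 7 rose and 1 fell, with a median log2 change of 0.15. Npas4, a basic helix-loop-helix factor induced by neuronal depolarisation, had 50.8, 51.3, 44.5 and 43 CPM in light libraries, against 10.6, 11.6, 9.24 and 11.3 CPM in dark libraries. The groups did not overlap and the log2 change was 2.14 ± 0.09 (adjusted p = 2.92e-07). Klf4, a Krüppel-like zinc finger factor, had 14.7, 15.1, 20.4 and 15.9 CPM in light libraries, against 3.35, 4.86, 3.77 and 5.63 CPM in dark libraries, a log2 change of 1.88 ± 0.16 (adjusted p = 0.000152). The others that rose were Cebpb (log2 change 1.20), Csrnp1 (1.19), Klf2 (1.10), Hes1 (0.75), a transcriptional repressor, and Srf (0.32), the serum response factor itself. Mef2a, Mef2c and Mef2d, calcium-regulated factors already present in neurons, had log2 changes of -0.02, -0.01 and -0.01.

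Among 20 tested members of the Ier, Btg, Zfp36 and Gadd45 list of early regulators, 6 rose, with a median log2 change of 0.40. Btg2, an antiproliferative protein that recruits mRNA deadenylases, had 122, 128, 110 and 120 CPM in light libraries, against 11.9, 15.7, 11.6 and 14.4 CPM in dark libraries. It was the strongest of the list, with a log2 change of 3.15 ± 0.07 (adjusted p = 2.14e-09). Ier2, a short early gene of 1.52 kb, had 14.2, 15.7, 12.5 and 15 CPM in light libraries, against 3.42, 4.47, 3.25 and 5.11 CPM in dark libraries, a log2 change of 1.82 ± 0.10 (adjusted p = 5.77e-06). The others were Ppp1r15a (log2 change 1.03), the GADD34 subunit that directs a phosphatase to eIF2α, Pim3 (0.70), a kinase, Zfp36l2 (0.51), which binds AU-rich mRNA, and Mcl1 (0.41), an antiapoptotic BCL2 relative. The Gadd45 genes did not pass, and Gadd45g came closest (log2 change 0.35, adjusted p = 0.0806).

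Inhibitors of MAP kinase signalling were part of the response. Of 15 tested MAP kinase phosphatases, Sprouty and Spred genes, 4 rose and none fell, with a median log2 change of 0.15. Dusp1, a nuclear phosphatase of p38, JNK and ERK, had 84.8, 82.3, 75.6 and 74.7 CPM in light libraries, against 13.5, 12.8, 14.3 and 12.4 CPM in dark libraries. The groups did not overlap, with a log2 change of 2.59 ± 0.06 (adjusted p = 4.26e-09). Dusp4, another nuclear phosphatase, had 12.5, 13.5, 10.3 and 11.3 CPM in light libraries, against 3.35, 3.66, 4.14 and 3.19 CPM in dark libraries, a log2 change of 1.74 ± 0.13 (adjusted p = 4.58e-05). Dusp5 rose by 1.08 ± 0.15 and Spry2, a membrane inhibitor of receptor tyrosine kinase signalling, by 0.49 ± 0.06 on the log2 scale. Dusp6, the cytoplasmic ERK phosphatase, changed by 0.33 (adjusted p = 0.816) and Spry4 by 0.55 (adjusted p = 0.0583).

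Among 18 tested small GTPases, RGS proteins, SIK kinases and phosphodiesterases, 4 rose and 1 fell, with a median log2 change of 0.11. Rrad, a GTPase of the RGK family that inhibits voltage-gated calcium channels, had 18.3, 19.2, 16.5 and 15.8 CPM in light libraries, against 2.9, 3.98, 3.7 and 5.27 CPM in dark libraries. It was clear of the dark group in every library, with a log2 change of 2.12 ± 0.14 (adjusted p = 2.18e-05). Its relative Gem had 13.5, 12.2, 14.3 and 12.1 CPM in light libraries, against 4.46, 4.92, 4.36 and 5.53 CPM in dark libraries, a log2 change of 1.41 ± 0.11 (adjusted p = 5.27e-05). Sik1, a kinase that phosphorylates the CREB coactivators known as CRTCs, rose by 1.09 ± 0.07 on the log2 scale (adjusted p = 1.05e-05), with 87.3 ± 13.5 CPM in light and 41.1 ± 5.28 CPM in dark libraries (SD, n = 4 each). Rasl11b rose by 0.55 ± 0.09. Sik2 and Sik3 had log2 changes of 0.02 and -0.04.

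Both genes called lower encode regulators. Rasd1, also called Dexras1, a GTPase with a known part in the SCN response to light, had 107, 95, 99.3 and 83.9 CPM in light libraries, against 128, 139, 125 and 136 CPM in dark libraries. Every light library was below every dark library, with a log2 change of -0.46 ± 0.07 (adjusted p = 0.0162). Cited2, a coactivator that binds CBP and p300, had 63, 60.7, 66.6 and 59.6 CPM in light libraries, against 71, 76.3, 80.8 and 76.7 CPM in dark libraries, a log2 change of -0.29 ± 0.05 (adjusted p = 0.0389). These calls are near the threshold: leaving out single libraries left between 0 and 2 genes lower, and with dark 1s, dark 2s, light 1s or light 2s left out neither gene was called. Rasd1 fell by 0.29 in the libraries without the suffix and by 0.60 in those with it, on the log2 scale.

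Of 19 tested synaptic and neuronal effectors, 2 rose, with a median log2 change of 0.08. Arc, a cytoskeleton-associated protein of active synapses, had 67.3, 64.1, 62.2 and 54.3 CPM in light libraries, against 7.44, 8.16, 7.91 and 7.58 CPM in dark libraries. The dark values lay close together and the light values far above them, with a log2 change of 2.98 ± 0.08 (adjusted p = 5.16e-09). Plk2, a kinase that acts at active synapses, had 54.3, 49.7, 54.2 and 48.9 CPM in light libraries, against 26.6, 29.9, 29.3 and 29.6 CPM in dark libraries, a log2 change of 0.83 ± 0.06 (adjusted p = 2.73e-05). Bdnf, Homer1, Nptx2, Nrn1, Scg2 and Pcsk1, activity-regulated genes of the same list, had log2 changes of 0.02, 0.15, 0.08, 0.08, 0.01 and -0.03, none of which passed the test. Larger changes that also did not pass were those of Ptgs2 (1.48, adjusted p = 0.571), Gpr3 (0.65, 0.275), Amigo3 (0.64) and Vgf (0.26). Of the 19 genes, 14 had a log2 change above 0.

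Secreted and matrix early genes gave 2 rises among 13 tested, with a median log2 change of 0.60. Cyr61, the matricellular protein now named Ccn1, had 19.5, 21.4, 23.9 and 18.5 CPM in light libraries, against 8.48, 6.51, 8.58 and 8.53 CPM in dark libraries. Its groups did not overlap, with a log2 change of 1.38 ± 0.11 (adjusted p = 6.99e-05). Nfkbiz, a nuclear IκB protein placed in the same list, had 10.2, 12.6, 9.31 and 11 CPM in light libraries, against 5.95, 6.8, 4.66 and 5.34 CPM in dark libraries, a log2 change of 0.92 ± 0.12 (adjusted p = 0.00451). Ctgf, a relative of Cyr61, had 3.19, 3.42, 74 and 14 CPM in light libraries, against 1.86, 3.14, 3.18 and 13 CPM in dark libraries (log2 change 1.73 ± 1.04, adjusted p = 1). Its high libraries, light 2, light 2s and dark 2s, are those of high meningeal marker sums given further on.

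In the clock itself 2 of 26 tested genes rose and none fell, with a median log2 change of -0.04. Per1 had 107, 101, 89.8 and 91.7 CPM in light libraries, against 51.1, 48.5, 58.3 and 55 CPM in dark libraries. The groups did not overlap and the log2 change was 0.87 ± 0.07 (adjusted p = 0.000128). Bhlhe40, the repressor also called Dec1, had 69.1, 72.2, 65.8 and 69.3 CPM in light libraries, against 49.7, 55.3, 51.8 and 55.4 CPM in dark libraries, a log2 change of 0.38 ± 0.04 (adjusted p = 0.00109). Per1 is also on the list of glucocorticoid-responsive genes and was the only 1 of its 12 genes to pass, with Fkbp5 at 0.17, Tsc22d3 at 0.12 and Sgk1 at 0.39 on the log2 scale.

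Per2, the other light-responsive Period gene, did not pass the test at 0.5 h. It had 61.6, 52.9, 55.8 and 56.1 CPM in light libraries, against 58.5, 55.4, 53.2 and 55.4 CPM in dark libraries, with a log2 change of 0.02 ± 0.05 (adjusted p = 1). The groups overlapped. Cry1 and Dbp had log2 changes of -0.18 and -0.21 and did not pass (adjusted p = 0.7 and 0.739), and Arntl and Clock had log2 changes of -0.03 and -0.04.

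Genes that transmit the light signal were not among those called. None of 27 tested light input kinases, glutamate receptor subunits and coactivators passed, with a median log2 change of -0.05. Creb1, the CRE-binding factor, changed by -0.01 and the coactivators Crebbp and Ep300 by -0.08 and 0.02 on the log2 scale. Of 12 cytosolic heat shock genes only Dnajb1, an HSP40 cochaperone, passed. It had 213, 208, 205 and 205 CPM in light libraries, against 101, 122, 107 and 118 CPM in dark libraries, a log2 change of 0.89 ± 0.05 (adjusted p = 8.79e-06). Hspa1a and Hspa1b, the inducible HSP70 genes, had log2 changes of 0.22 and -0.02.

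None of 19 SCN peptides and receptors and none of 9 SCN transcription factors passed, with median log2 changes of -0.03 and -0.04. Vip, the peptide of the retinorecipient core, had 300.05, 326, 236 and 308 CPM in light libraries, against 315, 407, 287 and 388 CPM in dark libraries, with overlapping groups and a log2 change of -0.25 ± 0.07 (adjusted p = 0.683). With light replicate 1 left out Vip was called lower, by 0.34 on the log2 scale (adjusted p = 0.0329), and within the libraries with the suffix by 0.31 (adjusted p = 0.0496). Grp, the gastrin-releasing peptide of the same region, had 23.3, 21.6, 17.1 and 20.9 CPM in light libraries, against 19.9, 21.5, 17.7 and 19.4 CPM in dark libraries (log2 change 0.08 ± 0.09, adjusted p = 1).

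Avp, the vasopressin gene of the SCN shell, had 31.5, 76.7, 87.5 and 128 CPM in light libraries, against 74.3, 81.9, 74.9 and 119 CPM in dark libraries (log2 change -0.13 ± 0.27, adjusted p = 1). Its groups overlapped and differed within themselves, with light 1 the lowest. Prok2, a secreted output signal of the SCN, had 2.28, 1.77, 3.43 and 1.18 CPM in light libraries, against 1.56, 0.712, 1.77 and 0.813 CPM in dark libraries, and its difference of 0.86 ± 0.21 on the log2 scale was not called (adjusted p = 0.303). The 9 SCN markers, Vip, Avp, Grp, Nms, Prok2, Lhx1, Six3, Six6 and Rgs16, summed to 833 to 1109 CPM in light and 868 to 1202 CPM in dark libraries, so the labelled tissue is present in both groups. In bulk tissue a change in the number of cells of a type and a change in RNA per cell cannot be told apart.

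Of the 60 called genes, 43 were on these lists and 17 were not, namely Apold1, Spty2d1, Tiparp, Midn, Cwc25, Tob1, Arl5b, Ccnl1, Emd, Coq10b, Tinf2, Siah2, Tob2, Gltscr2, Skil, Ppp1r3c and Slc25a3, all of them higher. Apold1, an endothelial early gene in other tissues, rose the most of these, with 9.46 ± 1.22 CPM in light and 3.23 ± 0.889 CPM in dark libraries (SD, n = 4 each) and a log2 change of 1.55 ± 0.12 (adjusted p = 6.99e-05). Spty2d1, a histone chaperone, had 78.5 ± 6.03 CPM in light and 37.8 ± 1.98 CPM in dark libraries (log2 change 1.05 ± 0.05, adjusted p = 2.55e-06). Tiparp, a mono-ADP-ribosyltransferase, had 57 ± 5.58 CPM in light and 29.8 ± 4.05 CPM in dark libraries (log2 change 0.94 ± 0.06, adjusted p = 1.84e-05). Tob1 and Tob2, relatives of Btg2 that also bind the deadenylase complex, rose by 0.72 ± 0.05 and 0.43 ± 0.06 on the log2 scale. Gltscr2 is now named Nop53.

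Among the genes called higher, the smallest log2 changes were those of Slc25a3, the mitochondrial phosphate carrier (0.25 ± 0.04), Ppp1r3c, a glycogen-targeting phosphatase subunit (0.29 ± 0.05), and Srf (0.32 ± 0.05). Ppp1r3c, with 112, 92.6, 112 and 84.2 CPM in light libraries, against 85.3, 76.4, 89.1 and 75.8 CPM in dark libraries, was called although its groups overlap. Both groups were lower in the libraries with the suffix, and the term for the suffix takes up such a difference. Just outside the threshold were Insig1 (log2 change 0.23, adjusted p = 0.0563), Spry4 (0.55, 0.0583), Rassf1 (0.43, 0.0665), Pard6a (0.49, 0.0772) and Tpt1 (0.60, 0.0774).

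The called genes were also fitted within each kind of library. Since these same 8 libraries chose the genes, the shared sign of all 60 in both kinds is largely set by that choice and is given as a description. The median absolute difference of their log2 changes between the libraries with and without the suffix was 0.13. The test of that difference called 0 of 14478 genes (0%), with 483 genes at an unadjusted p under 0.05, among them 3 of the 60: Klf4, Gem and Rasd1. Klf4 differed most, with a log2 change of 2.30 in libraries without the suffix and 1.58 in those with it. Within the libraries with the suffix, 2 against 2, 51 of the 60 genes were called, and within the shallower libraries without it 30 were. With light replicate 1 left out the test of the difference called 6 genes.

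**Figure D3:**
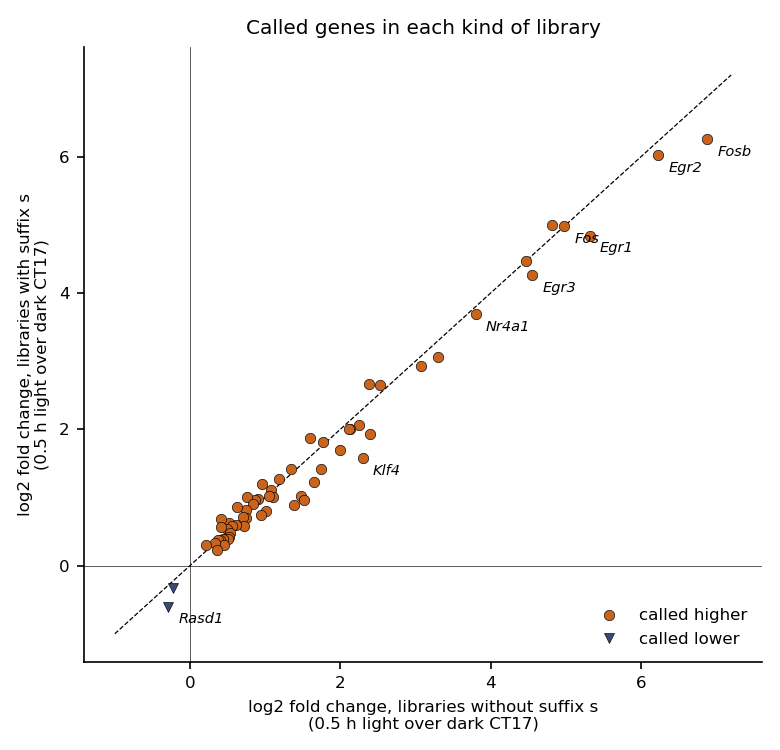
Log2 fold change of 0.5 h light over dark CT17 of the 60 called genes in libraries without the suffix s (x) and with it (y), with the line of equal change dashed. The same libraries chose the genes, so the shared sign of all 60 is a description, and Klf4 lies farthest from the line, at 2.30 and 1.58.

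Markers of meningeal fibroblasts stood apart in some libraries. The sum of 8 such markers was 311, 465, 4513 and 1943 CPM in light libraries, against 303, 383, 300.1 and 1407 CPM in dark libraries, most of it from Ptgds, so light 2, light 2s and dark 2s were high. None of the 8 markers passed the test, though their median log2 change was 1.54, and none of them is among the called genes. With those 3 libraries left out, an alternative chosen after the values were seen, 56 genes were called, of which 49 were among the 60, all of them higher. The 2 lower genes were not called there, with log2 changes of -0.37 for Rasd1 (adjusted p = 0.125) and -0.30 for Cited2 (adjusted p = 0.402).

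No gene passed among the markers of neurons, astrocytes, oligodendrocytes and their precursors, microglia, endothelium, mural cells, ependyma, red cells and neighbouring hypothalamus. The summed neuron markers were 3494 to 3787 CPM in light and 3549 to 3905 CPM in dark libraries, with a median log2 change of -0.02. All 7 oligodendrocyte markers were below 0 (median -0.22), with sums of 5193 to 8637 CPM in light and 7317 to 8610 CPM in dark libraries, and so were all 7 astrocyte markers (median -0.13), with 3374 to 4720 CPM in light and 3653 to 5490 CPM in dark libraries. All 6 endothelial markers were above 0 (median 0.23), with sums of 105 to 181 CPM in light and 100.3 to 130.4 CPM in dark libraries, and so were all 4 mural markers (median 0.40), with 137 to 297 CPM in light and 141 to 177 CPM in dark libraries. The sums of each of these types overlapped between the groups, and their part in the results was not tested. The range of the red cell sum was 60.2 to 388 CPM in light and 105 to 272 CPM in dark libraries, and no marker was at 0 in any library.

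The same genes were followed at later times of the light-pulse experiment, where 2 libraries each had 1 h, 3 h and 6 h of light from CT17. These share the dark libraries with the 0.5 h comparison and are all of label batch 2 without the suffix, so levels are given with no test. The highest mean of the 4 light groups fell at 0.5 h for 23 of the 58 genes, at 1 h for 32, at 3 h for 2 and at 6 h for 1. For some genes the 0.5 h and 1 h means were nearly level, so their place in these counts is loose. Nr4a1 had 121 ± 11.7 CPM at 0.5 h and 122 ± 3.32 CPM at 1 h, and Fosb 116 ± 25 and 113 ± 0.381 CPM. Npas4 had 10.7 ± 1.05 CPM in dark CT17, 47.4 ± 4.26 at 0.5 h, 11.4 ± 2.19 at 1 h and 8.15 ± 1.83 CPM at 3 h (SD, n = 4, 4, 2 and 2). Its 1 h mean lay within 1 SD of its dark mean. Arc had 7.77 CPM in dark CT17, then 62, 42.9, 11.4 and 9.57 CPM at 0.5, 1, 3 and 6 h.

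Other genes built up more slowly. Fosl2 had 10.7 ± 1 CPM in dark CT17, 61.3 ± 7.24 at 0.5 h, 189 ± 1.41 at 1 h and 66.8 ± 11.6 CPM at 3 h. Rrad had 3.96 CPM in dark CT17, then 17.5, 49.7 and 17.3 CPM at 0.5, 1 and 3 h, and Gem, its relative, 4.82, then 13, 28.1 and 27.9 CPM. Per1 had 53.2 CPM in dark CT17, then 97.2, 181, 83.6 and 80.3 CPM at 0.5, 1, 3 and 6 h. The 0.5 h level of Per1 thus lay between its dark and its 1 h level.

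The genes of latest peak were Tinf2, a shelterin subunit at telomeres, with 13.9 CPM at 0.5 h and 30.1 CPM at 3 h, Ppp1r3c with 100.3 CPM at 0.5 h and 149 CPM at 3 h, and Rasl11b with 14.2 CPM at 0.5 h and 24.5 CPM at 6 h. For Rasl11b the dark CT23 libraries had 19.9 ± 4.42 CPM, against 9.67 ± 0.64 CPM in dark CT17. Rasd1, lower at 0.5 h, had 132, 96.4, 106, 155 and 123 CPM in dark CT17 and at 0.5, 1, 3 and 6 h of light, and 83.9 ± 13.6 CPM in dark CT23, so its mean in darkness was lower at CT23 than at CT17, with no test.

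**Figure D4:**
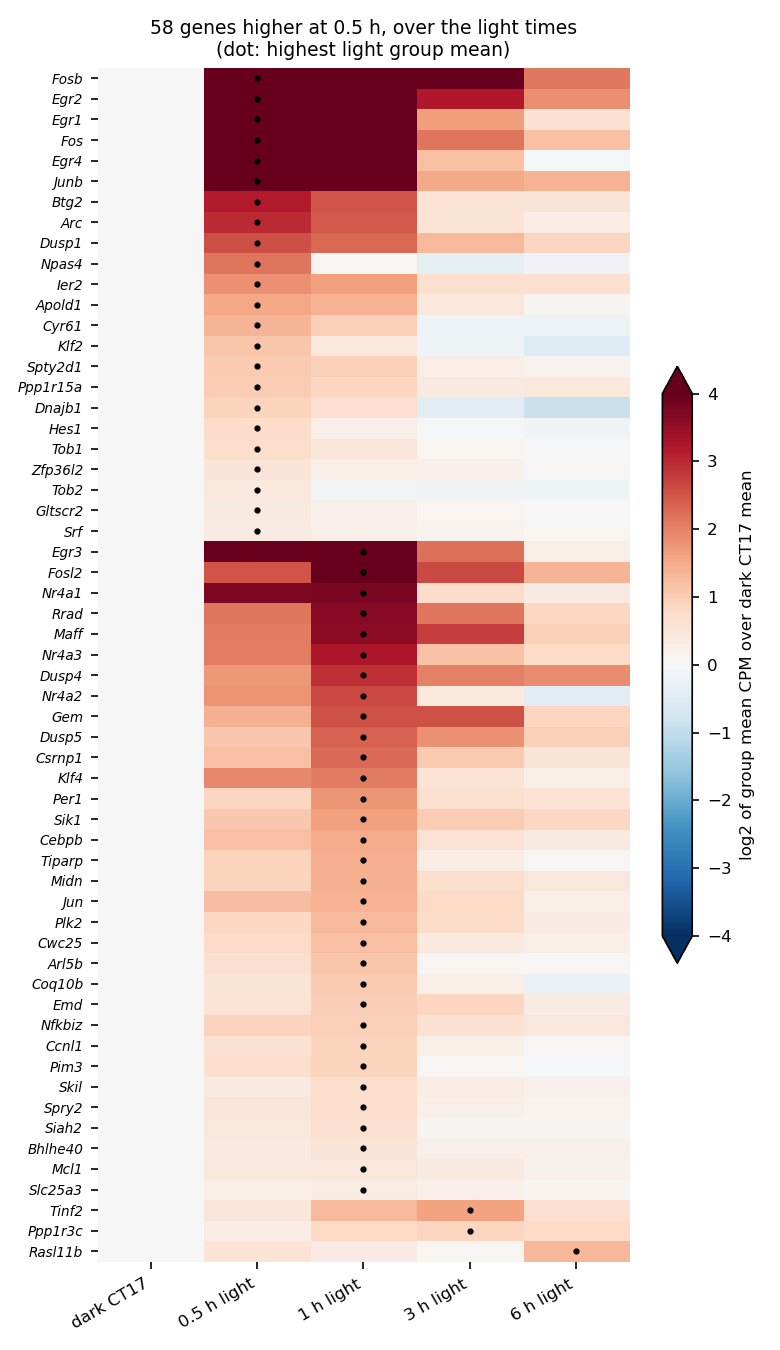
Group mean CPM relative to dark CT17 (log2 colour scale that ends at 4 in both directions) of the 58 genes called higher at 0.5 h, in dark CT17 and after 0.5, 1, 3 and 6 h of light, with a dot at the light group of highest mean. The upper 23 genes have their highest mean at 0.5 h, and the next 32 at 1 h.

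Most of these genes were also called after 1 h of light in an experiment with no shared control. In wild-type littermates of Npas4 null mice, 3 libraries after 1 h of light from CT17 were compared with 3 dark libraries, in a fit with the 6 libraries of the null mice, by edgeR's quasi-likelihood test. Of 15001 genes tested there, 386 (2.57%) were called and 335 (2.23%) were higher. Of the 58 genes higher at 0.5 h, 55 were among the 335, which is 94.8% of the 58 and 16.4% of the 335. The log2 change was larger at 1 h for 49 of the 58, though the experiments were scaled apart and this difference was not tested.

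Fosl2 had 421, 338 and 371 CPM in littermates after 1 h of light, against 13.8, 12.5 and 11.5 CPM in dark littermates, a log2 change of 4.90 ± 0.24 (adjusted p = 1.08e-07). Per1 had 223, 215 and 215 CPM after 1 h of light, against 49.9, 48.7 and 46.8 CPM in the dark, a log2 change of 2.16 ± 0.11 (adjusted p = 1.93e-07). Both were above their 0.5 h changes of 2.53 and 0.87. The 3 genes not called at 1 h were Npas4 (log2 change 0.61, adjusted p = 0.34), Rasl11b (0.30, 0.444) and Tob2 (0.04, 0.999). Npas4 had 13.7, 10.8 and 14 CPM in littermates after 1 h of light, against 8.6, 8.18 and 8.36 CPM in the dark, and its groups did not overlap. The SE of its change was 0.23, and smaller changes were called there, as for Hes1 (0.44 ± 0.10, adjusted p = 0.0324). The fit shares its spread with libraries of Npas4 null mice, and what this does to the test of Npas4 was not tested. Neither gene lower at 0.5 h was called at 1 h, where Rasd1 had a log2 change of -0.63 (adjusted p = 0.369) and Cited2 of -0.33 (adjusted p = 0.471).

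**Figure D5:**
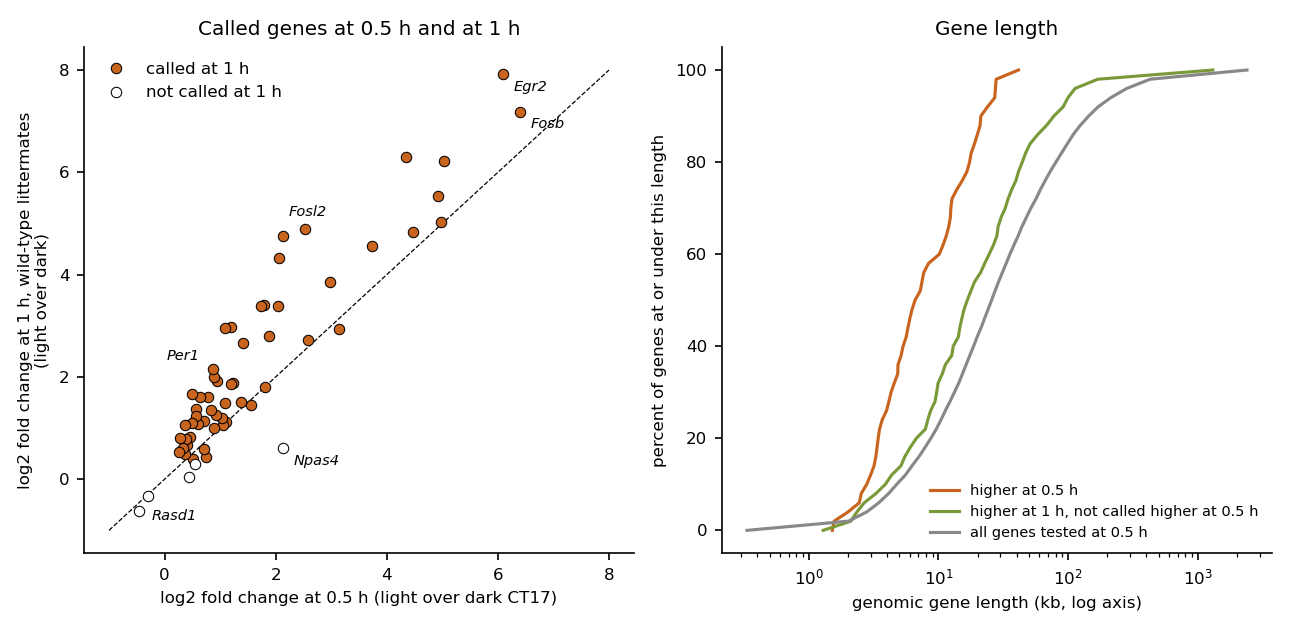
Left, log2 fold change of the 60 called genes at 0.5 h (x) and at 1 h in wild-type littermates (y), with the line of equal change dashed and filled points for genes called at 1 h; Npas4 lies far below the line. Right, percent of genes at or under a given genomic length in kb (log axis), with medians of 6.59 kb for the 58 genes higher at 0.5 h, 16.7 kb for the genes higher at 1 h and not called higher at 0.5 h, and 25.7 kb for all genes tested.

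The genes of this response were short next to the genes tested. From the start to the end of the gene in RefSeq on GRCm38.p6, introns included, the 58 higher genes had a median length of 6.59 kb, against 25.7 kb for the 14385 tested genes with a length. Of the 58, 34 (58.6%) were under 10 kb, against 22.9% of the genes tested. The 280 genes higher at 1 h in littermates and not called higher at 0.5 h had a median of 16.7 kb, and 32.5% of them were under 10 kb. Cebpb and Ier2, at 1.52 kb each, were the shortest of the 58. These lengths are given as a description with no test.

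Histone marks at these genes were read from the authors' peak lists, 1 ChIP library per mark and condition, where light lasted 1 h and each sample held 2 pairs of SCN. A peak of H3K4me3, a mark of promoters in use or poised, lay within 1 kb of either end of the gene for 56 of the 58 genes (96.6%) in light and 55 (94.8%) in dark, against 87% and 88.3% of the genes tested. Npas4 and Ccnl1 had none there in either list. Their promoter windows lie inside the gene's span, over 1 kb from either end. So do those of Nr4a1, Mcl1, Per1, Midn, Tob1 and Srf, and most of those of Egr2. Genes without a window could not be checked for this. Peaks confined to those starts were therefore not counted, and a peak counted for such a gene need not lie at its promoter. Whether these promoters carry the marks was not examined. A peak of H3K27ac, which marks promoters and enhancers in use, was there for 45 of the 58 (77.6%) in light and 45 (77.6%) in dark, against 63.9% and 65.3% of the genes tested. Rrad and Maff had such a peak in the light list only, and Nr4a1 and Tinf2 in the dark list only, which with 1 library per list cannot be told apart from variation between libraries.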

How the data were processed

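The deposited count table holds raw whole-number counts for 21999 gene symbols. A second deposited table holds RPKM values of the same libraries. The deposited peak lists give a fold enrichment and a −log10 q-value per peak, of which only positions were used. Per the submitters' processing notes, STAR 2.7.1a and 2.5.2b, HTSeq 0.9.1, featureCounts 1.6.2, BWA 0.7.16a, MACS2 2.1.1 were among the tools, and the build was mm10. Which options and strand setting the counting used is not given in the sources used here, so overlapping and antisense genes are uncertain. No column lacked a sample. Per the labels' protocols, mRNA was isolated with a Dynabead kit and libraries followed TruSeq.

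The main test was the quasi-likelihood F-test of edgeR 4.0.16 (R 4.3.3), on counts scaled by TMM and filtered by filterByExpr (minimum count 10, total 15), with a term for the suffix and no replicate block. Adjusted p-values (Benjamini-Hochberg) cover every gene tested. The standard error is the log2 change divided by the square root of F. For large changes from very few dark reads, as in Egr2 and Egr4, it understates the uncertainty of the fold. CPM was scaled over the 16 light-pulse libraries. The fit was tested on simulated counts of independent libraries with the same fixed spread for every gene. This does not cover shared pools of tissue or the differences in meningeal markers. DESeq2 1.42.0 was an alternative. Between libraries of 1 group the chi-square over its degrees of freedom was 5.66 to 33.9, above counting noise, so all were kept as separate libraries. This does not show that they come from separate pools. Motifs, lengths and peaks were counted in Python 3.11.15.

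The members and gene lists were chosen with earlier results of these data known. Values per library are given for the 12 called genes of largest change, the genes called lower, the called clock genes and Per2, the 2 largest called changes of each list, and Vip, Avp, Grp and Prok2. Of the 6 genes of smallest adjusted p above 0.05, 5 are named and 1 is not reported here. Single-nucleus samples were not used here.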

Additional observations from a re-analysis of the deposited data

Results flagged for a closer look

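Among 142 groups of 4 libraries (each called or named gene in each group), 6 had 1 library far from the others by Dixon's test of the gap to the nearest library over the range of the group. Chance gives about 1 in 20 such groups. Plk2 was at 26.6 CPM in dark 1, against 29.3 to 29.9 CPM in the other dark libraries. Cyr61 was at 6.51 CPM in dark 1s, against 8.48 to 8.58 CPM in the others. Tob1 was at 89.2 CPM in dark 2, against 99.1 to 99.7 CPM in the others. Avp was at 119 CPM in dark 2s, against 74.3 to 81.9 CPM in the others. Cebpb was at 4.64 CPM in light 2s, against 3.81 to 3.88 CPM in the other light libraries. Siah2 was at 12.9 CPM in light 1, against 14.6 to 14.7 CPM in the other light libraries.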

How the results depend on the processing

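Of the 60 genes, 30 were called under all 21 alternatives, and none changed direction under any of them. The total stayed within 1.5 times of 60 in every alternative but 1: within the libraries without the suffix 31 genes were called (30 higher, 1 lower). It was 59 with RLE size factors, 85 with DESeq2, 51 with no suffix term, 54 with the libraries of a number summed, and 47 to 70 with single libraries left out. Genes lower numbered 5 with DESeq2, 1 with no suffix term, 1 with summed libraries, 4 within the libraries with the suffix, and 0 to 2 with single libraries left out. The test of the difference between kinds of library called 0 to 6 genes with single libraries left out. The cause of these moves was not tested. With the labels 1, 1s, 2 and 2s as a replicate block 66 genes were called. What the suffix and light terms left over correlated between same-numbered light and dark libraries at r from -0.21 to 0.12 over 14478 genes. Fitting those terms shifts such correlations by itself. The check therefore cannot decide whether the numbers pair light with dark libraries. With numbers as a block in littermates, 55 genes were also higher at 1 h. Searching the palindrome or its 5-letter core gave 14.5% and 72.7% of promoter windows. Depth limits the dark levels of Egr2 and Egr4, which rest on 3 to 9 reads.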
